A study of Mus musculus with 30 samples.

Results

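The genes described here encode matrix metalloproteinases (MMPs) and their tissue inhibitors (TIMPs). They were taken by symbol from a table of transcript levels in 3T3-L1, a mouse fibroblast line that can be turned into fat cells, and comprise 7 proteases (Mmp2, Mmp3, Mmp10, Mmp11, Mmp13, Mmp14, Mmp19) and 3 inhibitors (Timp1, Timp2, Timp3). These 10 genes stood among 62266 gene rows, and 31 transcript rows were summed into them. Values are in FPKM, fragments per kilobase of transcript scaled to the size of the library, so that levels can be compared between genes per length. All 10 were among the 18035 gene rows that reached 1 FPKM in at least 5 of the 30 libraries, Mmp10 in exactly 5.

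The study asked how quizalofop-p-ethyl (QpE), a herbicide, acts on 3T3-L1 cells that are forming fat. Cultures were kept in a differentiation medium with insulin and 3-isobutyl-1-methylxanthine, a phosphodiesterase inhibitor, and this medium was shared by all groups. Control cultures and cultures with 50 µM QpE were harvested at times labelled as 6 h, 24 h and 12 days, giving 6 groups of 5 culture replicates numbered 1 to 5. The cells are a single established line used at low passage, grown in multiwell plates. Dexamethasone was named in the protocol as a positive control and not as an ingredient of the medium, and no group used here carries it. The protocol describes a shorter schedule than the 12 day label, which is kept here as given.

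MMPs are zinc-dependent proteases that are mostly secreted as inactive precursors and, once activated, cut collagens, proteoglycans and other matrix proteins. TIMPs bind the active site of these enzymes and block it. The matrix around a fibroblast-like precursor is remodelled as it becomes a rounded fat cell, and both protease and inhibitor genes are expressed in adipose tissue, largely by stromal cells.

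Libraries of a group were not equally alike. Over loci with a single transcript, the spread of log2 ratios between 2 libraries of a group was compared with that from counting alone. It was 1.26 to 7.07 times as large in all 60 within-group comparisons. Replicates 1 and 2 were the closest pair in every group but QpE at 6 h, at 1.26 to 1.92 times. Depth is approximate, so such ratios cannot exclude near repeats, and the tests count each library as a separate culture. At 12 days the first principal component of the deviations from group means (25.1% of their variance) set replicates 3 and 4 apart from 1, 2 and 5 in both groups, and values within these sets are given beside the pooled ones. At 6 h that component (16.1%) had these sets on opposite sides of 0 in both groups, and at 24 h (18.1%) in controls only. Approximate depth, read from the steps between low FPKM values, was 9500000 to 17400000 fragments per library, and the labels give the same RNA integrity number for every sample. The summed level of 8 preadipocyte and fibroblast markers at 12 days was 2842 to 3599 FPKM in controls and 408 to 1921 FPKM with QpE, with the lowest value in QpE replicate 5. The summed level of 8 adipocyte markers at 12 days was 968 to 5081 FPKM in controls, lowest in replicates 3 and 4, and 3077 to 8278 FPKM with QpE. Lep, the fat cell hormone leptin, was under 1 FPKM in every library. Of 5 macrophage markers, Adgre1, Csf1r, Ptprc and Lyz2 were under 1 FPKM in all libraries, as were all 4 endothelial markers and the epithelial markers Epcam and Cdh1. The remaining macrophage marker, Cd68, reached 5.35 FPKM and was at 1 FPKM or more in 12 libraries. The epithelial markers Krt8 and Krt18 reached 1.35 and 1.23 FPKM, each passing 1 FPKM in 1 library. Summed epithelial markers at 12 days were at most 0.0915 FPKM in controls and 0.274 to 2.59 FPKM with QpE, highest in replicate 5. The part these markers play in the results below was not tested, and in RNA from whole cultures fewer cells of a type and less RNA per cell cannot be told apart. The p-values measure the spread between these culture replicates.

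Of the 7 protease genes, 3 (Mmp13, Mmp3 and Mmp10) belong to a cluster of 10 MMP genes on chromosome 9 that spans 427.1 kb in the table's GRCm38 coordinates. Their upstream sequences are shown because promoters of this cluster are known for AP-1 sites. That of Mmp11 is shown because its mean level with QpE at 12 days lay above the control mean, though the groups overlapped. The sequences are from RefSeq on GRCm38.p6, 100 bases up to the last base before the annotated start, written 5′ to 3′ on the gene's strand. Capitals mark matches to TGANTCA (the AP-1 motif), TATAAA (the TATA box) or GGGCGG (the Sp1 motif), each searched on both strands of the 250 bases before the start. For 8 of the 10 genes a RefSeq promoter was matched by symbol (none for Mmp2 and Mmp19).
Mmp3 (chr9:7445722-7445821, plus strand): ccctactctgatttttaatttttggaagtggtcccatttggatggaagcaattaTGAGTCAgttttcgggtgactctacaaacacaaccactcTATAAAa
Mmp10 (chr9:7502242-7502341, plus strand): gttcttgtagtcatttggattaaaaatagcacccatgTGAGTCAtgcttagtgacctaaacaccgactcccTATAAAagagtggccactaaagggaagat
Mmp13 (chr9:7272414-7272513, plus strand): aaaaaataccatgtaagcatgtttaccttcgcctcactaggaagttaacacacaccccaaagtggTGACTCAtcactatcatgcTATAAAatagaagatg
Mmp11 (chr10:75932503-75932602, minus strand): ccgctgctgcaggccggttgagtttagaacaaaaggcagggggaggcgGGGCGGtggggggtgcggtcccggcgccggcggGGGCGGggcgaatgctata
The AP-1 motif lay 46 bases before the start in Mmp3, 63 in Mmp10 and 35 in Mmp13. It was matched in these 3 and in none of the other 5 (Mmp11, Mmp14, Timp1, Timp2, Timp3), against 6.75% of 32851 promoters of the same length. The TATA box was matched in the same 3 genes (12.4% of all promoters) and the Sp1 motif in the other 5 (32.7%). The TATA box lay 7 bases before the annotated start in Mmp3, 29 in Mmp10 and 16 in Mmp13. Distances of either motif depend on where each start is annotated. A match describes these letters only.

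With QpE at 12 days the mean levels of all 3 inhibitors and of most proteases were below the control means, and that of Mmp11 was above. Among the proteases only Mmp3 and Mmp13 had groups that did not overlap. The inhibitor gene Timp3 fell 3.34-fold, from 10.5 ± 0.517 to 3.14 ± 1.66 FPKM (mean ± SD, n = 5 each). Mean levels were 6.04-fold lower for Mmp3, 3.25-fold lower for Mmp13, 2.83-fold lower for Timp1 and 2.77-fold lower for Timp2, but in the test of the 2 compared groups these did not pass. In that test (limma on log2(FPKM + 1), two-sided, Benjamini-Hochberg adjusted p under 0.05 over all 18035 gene rows) 1 of 10 genes was called lower, beside 2.73% of all gene rows, and 0 of 10 higher, beside 2.13%. At an unadjusted p under 0.05 there were 7 of 10, beside 3852 of the 18035 gene rows. Of the 10, 9 had a difference below 0, with a median of -1.47 on the log2 scale, where 51.2% of all gene rows lay below 0 with a median of -0.01. For 5 of 10 (Mmp3, Mmp13, Timp1, Timp2, Timp3) every QpE library lay below every control library, which was true of 6.08% of all gene rows. In the paragraphs on single genes, QpE libraries are also set beside the control of their number, which the labels do not call a pair. The share of all gene rows lower, or higher, in every number at 12 days was not counted. Over all gene rows 384 were called higher and 493 lower. Scaling every library to the same FPKM total (TPM) gave 224 and 604 and median-ratio scaling 512 and 458, while Timp3 was the called gene under both.

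**Figure D1:**
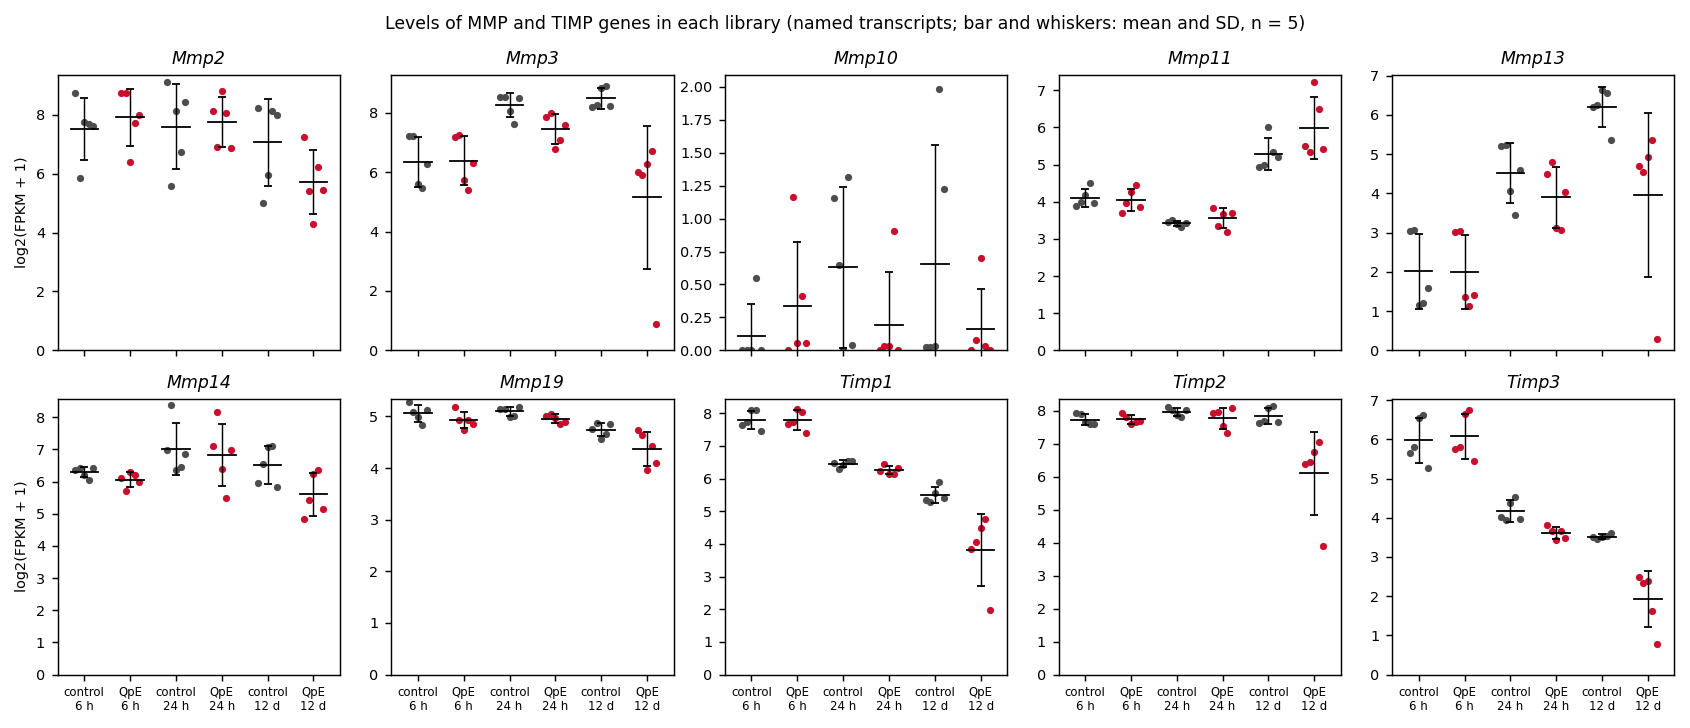
Level of each gene in every library on the log2(FPKM + 1) scale, named transcripts only, for control (grey) and QpE (red) cultures at 6 h, 24 h and 12 days. The long bar is the mean and the whiskers the SD of 5 libraries. In the QpE group at 12 days the lowest point of Mmp3, Mmp13, Timp1, Timp2 and Timp3 is replicate 5, at 0.846, 0.213, 2.902, 13.97 and 0.717 FPKM.

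The count of genes called at 12 days depended on single cultures and on how spread and transcripts were handled. Dropping any 1 control, or QpE replicate 3, gave 0 of 10, beside 33 to 91 of the 18035 gene rows called lower. Without QpE replicate 5, 5 of 10 were called lower (Mmp3, Mmp13, Timp1, Timp2, Timp3), beside 2.47% of all gene rows, although their differences were then smaller. When assembled transcripts without a gene name were joined to the gene of their locus, 4 of 10 were called lower (Mmp3, Timp1, Timp2, Timp3), beside 7.16% of 14616 gene rows. With all 30 libraries in 1 fit, where the 6 groups share 1 spread per gene, 6 of 10 were called lower (these 4, Mmp13 and Mmp19), beside 8.86%. The spread was larger in QpE at 12 days than in other groups, so a shared spread can make false calls there. With the replicate set (3 and 4, or 1, 2 and 5) as a term and unnamed transcripts joined, 6 of 10 were called lower (Mmp2, Mmp3, Mmp14, Timp1, Timp2, Timp3), beside 13.3%, and Mmp11 was called higher, beside 12.1%. With the replicate number as a block and unnamed transcripts joined, 7 of 10 were called lower (these 6 and Mmp13), beside 10.2%, and Mmp11 higher, beside 8.78%. The sets were drawn from these same data, so a term for them can lower the spread by its choice. Both settings with joining were chosen after the data were seen. With the block and named transcripts, Mmp14 (adjusted p = 0.0453) was the 1 gene called, beside 1.74%. Within replicates 1, 2 and 5 and within replicates 3 and 4, 0 of 10 were called, with 6 and 7 of 10 at an unadjusted p under 0.05, beside 3763 and 3933 of 18035 gene rows.

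**Figure D2:**
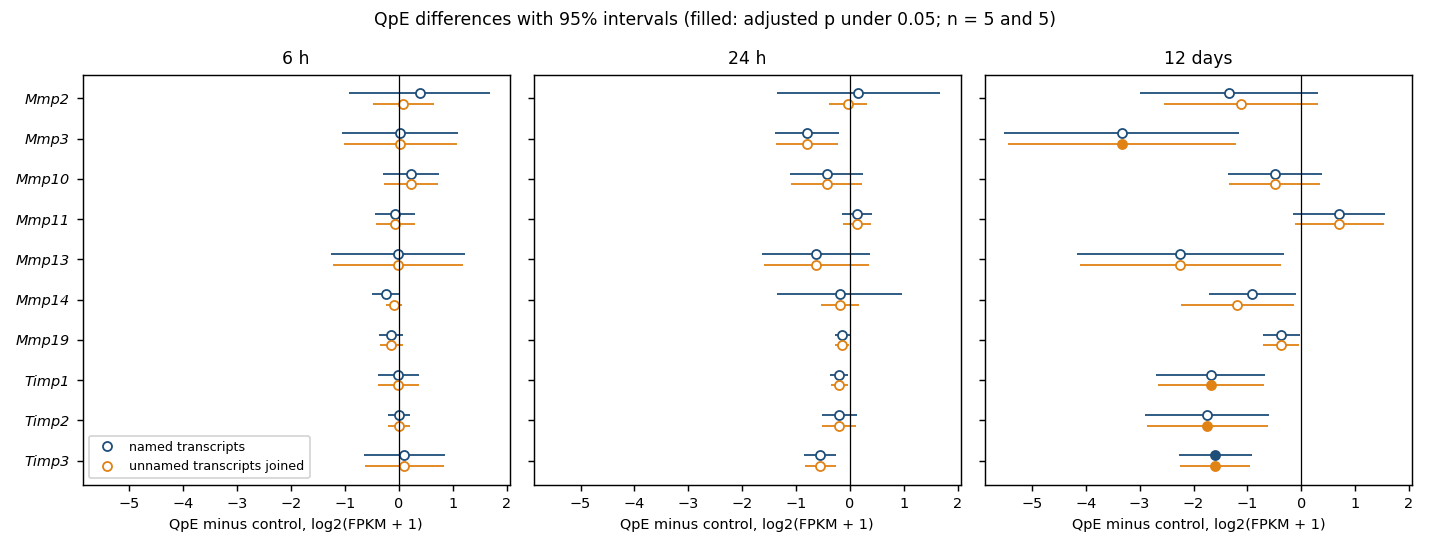
QpE minus control differences on the log2(FPKM + 1) scale at 6 h, 24 h and 12 days, with 95% intervals from limma (n = 5 per group), for named transcripts (blue) and with unnamed transcripts of the locus joined (orange). Filled points have an adjusted p under 0.05: Timp3 with named transcripts, and Mmp3, Timp1, Timp2 and Timp3 with unnamed transcripts joined, all at 12 days.

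Timp3 encodes an inhibitor that stays bound to the matrix and also blocks ADAM and ADAMTS proteases. It lies on chromosome 10 at 86300372 to 86349506, plus strand. Control libraries at 12 days held 10.4, 9.91, 10.3, 10.5 and 11.3 FPKM (replicates 1 to 5), and QpE libraries 4.61, 4.03, 4.22, 2.10 and 0.717 FPKM. The groups did not overlap, the controls were close together, and QpE replicates 4 and 5 were the lowest. The gene fell by 1.60 on the log2 scale (SE 0.305, adjusted p = 0.0294). The difference was -1.66 within replicates 1, 2 and 5 and -1.51 within replicates 3 and 4, and -1.31 (adjusted p = 0.00647) without QpE replicate 5. Leaving out any 1 control, or QpE replicate 3, took the adjusted p to between 0.0516 and 0.0699, without the filter on low levels it was 0.0547, and with the replicate number as a block it was 0.0515.

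The control mean of Timp3 was 6.31-fold lower at 12 days than at 6 h. Control means were 66.2 ± 26.6 FPKM at 6 h, 17.2 ± 3.58 at 24 h and 10.5 ± 0.517 at 12 days (SD, n = 5). In controls it fell by 1.81 on the log2 scale from 6 h to 24 h (SE 0.263, adjusted p = 0.00285) and by a further 0.65 from 24 h to 12 days (adjusted p = 0.00513, and 0.114 with all 30 libraries in 1 fit). At 24 h the QpE libraries held 13.0, 11.7, 9.84, 11.6 and 10.3 FPKM and the controls 15.3, 14.3, 19.8, 22.2 and 14.5 FPKM. These groups did not overlap either, but the difference of -0.56 (95% interval -0.86 to -0.26) had an adjusted p of 0.519. In order of mean level the groups ran from QpE at 6 h (71.2 FPKM) and control at 6 h through control at 24 h, QpE at 24 h (11.3 FPKM) and control at 12 days to QpE at 12 days. Neighbours overlapped in 2 places, between both 6 h groups and between QpE at 24 h and control at 12 days.

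Timp1 encodes a soluble inhibitor, and lies on chromosome X at 20870166 to 20874735, plus strand. Control libraries at 12 days held 40.0, 37.5, 46.4, 58.8 and 40.9 FPKM, and QpE libraries 13.4, 15.6, 21.3, 25.97 and 2.902 FPKM. Every QpE library was below every control, and below the control of its own number. The difference of -1.68 (SE 0.454) did not pass (adjusted p = 0.0630), and was -1.21 without QpE replicate 5 (adjusted p = 0.0150), -2.05 within replicates 1, 2 and 5 and -1.12 within replicates 3 and 4. In controls Timp1 fell by 1.34 from 6 h to 24 h (adjusted p = 5.04e-04) and by 0.96 from 24 h to 12 days (adjusted p = 4.67e-04), with means of 224.8 ± 44.0, 86.9 ± 5.97 and 44.7 ± 8.53 FPKM. The 6 groups ran in order of time, with the QpE mean at or below the control mean at each time, and only the 2 groups at 6 h and the 2 at 24 h overlapped with a neighbour.

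Timp2 encodes the inhibitor that, with the membrane protease Mmp14, takes part in activating the Mmp2 precursor. It lies on chromosome 11 at 118301069 to 118355740, minus strand. Control libraries at 12 days held 197, 208, 272, 284 and 204 FPKM, and QpE libraries 82.3, 87.2, 107, 131 and 13.97 FPKM. QpE replicate 5 stood far below the other 4 QpE libraries, and all 5 lay below every library of the other 5 groups. The difference was -1.74 (SE 0.518, adjusted p = 0.0822), and -1.19 without QpE replicate 5 (adjusted p = 0.00819). Within replicates 1, 2 and 5 it was -2.09 and within replicates 3 and 4 -1.23. Unlike Timp1 and Timp3, Timp2 had control means that stayed within 213.5 to 250.9 FPKM across the 3 times, and the differences between them did not pass (0.24 for 24 h against 6 h, adjusted p = 0.121, and -0.12 for 12 days against 24 h, adjusted p = 0.539). With the replicate set as a term the first of these passed (adjusted p = 0.0377).

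Mmp3 encodes stromelysin 1, a secreted protease with many matrix substrates that can also activate other MMPs. It lies on chromosome 9 at 7445822 to 7455975, plus strand, with the upstream sequence printed above. Control libraries at 12 days held 296, 305, 457, 475 and 303 FPKM, and QpE libraries 63.0, 59.8, 76.2, 104 and 0.846 FPKM. The highest QpE library was below the lowest control, and QpE replicate 5 was near 0 while the other 4 lay close together. The difference was -3.33 (SE 0.977, adjusted p = 0.0796). Without QpE replicate 5 it was -2.26 (SE 0.218, adjusted p = 0.00190). It was -3.97 within replicates 1, 2 and 5, and -2.37 within replicates 3 and 4, so the pooled size rests in part on that culture.

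In controls Mmp3 rose by 1.90 on the log2 scale from 6 h to 24 h (SE 0.379, adjusted p = 0.0118), a 3.38-fold higher mean, from 93.1 ± 52.4 to 314.8 ± 77.8 FPKM. With all 30 libraries in 1 fit this call was lost (adjusted p = 0.0893). The control mean at 12 days was 367 ± 90.5 FPKM. At 24 h QpE libraries held 229, 253, 110, 136 and 192 FPKM against 371, 372, 269, 199 and 363 FPKM in controls. The groups overlapped, but the QpE library was lower than the control of its number in 5 of 5 cases. The difference was -0.80 (95% interval -1.39 to -0.21, adjusted p = 0.655). At 6 h the 2 groups had 94.3 and 93.1 FPKM. In order of mean level the groups were control at 12 days, control at 24 h, QpE at 24 h, both groups at 6 h and QpE at 12 days, and each overlapped with its neighbour.

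Mmp13 encodes collagenase 3, which cuts fibrillar collagen, and lies in the same cluster at 7272514 to 7283331, plus strand. Control libraries at 12 days held 73.2, 75.1, 98.0, 93.5 and 40.2 FPKM, and QpE libraries 24.9, 22.4, 29.5, 39.8 and 0.213 FPKM. The groups were separate by a narrow margin (39.8 FPKM in QpE replicate 4 and 40.2 FPKM in control replicate 5). The difference of -2.24 (SE 0.859) had an adjusted p of 0.162, and was -1.32 without QpE replicate 5 (adjusted p = 0.0327). Within replicates 1, 2 and 5 it was -2.77 and within replicates 3 and 4 -1.46. In controls the mean was 19.9-fold higher at 12 days than at 6 h, with means of 3.83 ± 3.18, 24.4 ± 12.0 and 76.0 ± 22.8 FPKM, a rise of 2.51 from 6 h to 24 h (adjusted p = 0.0119) and of 1.69 from 24 h to 12 days (adjusted p = 0.0106, and 0.0847 with all 30 libraries in 1 fit). Control at 12 days was the 1 group whose libraries all lay above those of its neighbour in order of mean level.

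Mmp3 and Mmp13 moved together from library to library. Across 30 libraries their log2 levels correlated with r = 0.75, and the deviations from the 6 group means with r = 0.96. QpE replicate 5 at 12 days is the lowest library for both, far below the others of its group. The r of the deviations rests in part on it, and r without it was not computed. At 6 h replicates 1 and 2 were high for both genes in both groups (149 and 149 FPKM of Mmp3 in controls, 146 and 152 FPKM with QpE), and replicates 3 and 4 low. The 30 libraries share groups and culture sets, so these correlations are descriptions. Mmp10, stromelysin 2, which lies 46.4 kb from Mmp3, was at 2.95 FPKM or less in every library. Its largest group mean was 0.869 ± 1.30 FPKM (control at 12 days), and its QpE differences of 0.23 at 6 h, -0.44 at 24 h and -0.49 at 12 days had intervals that include 0. Of the 10 genes of the cluster, 6 were under 1 FPKM in all libraries.

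**Figure D3:**
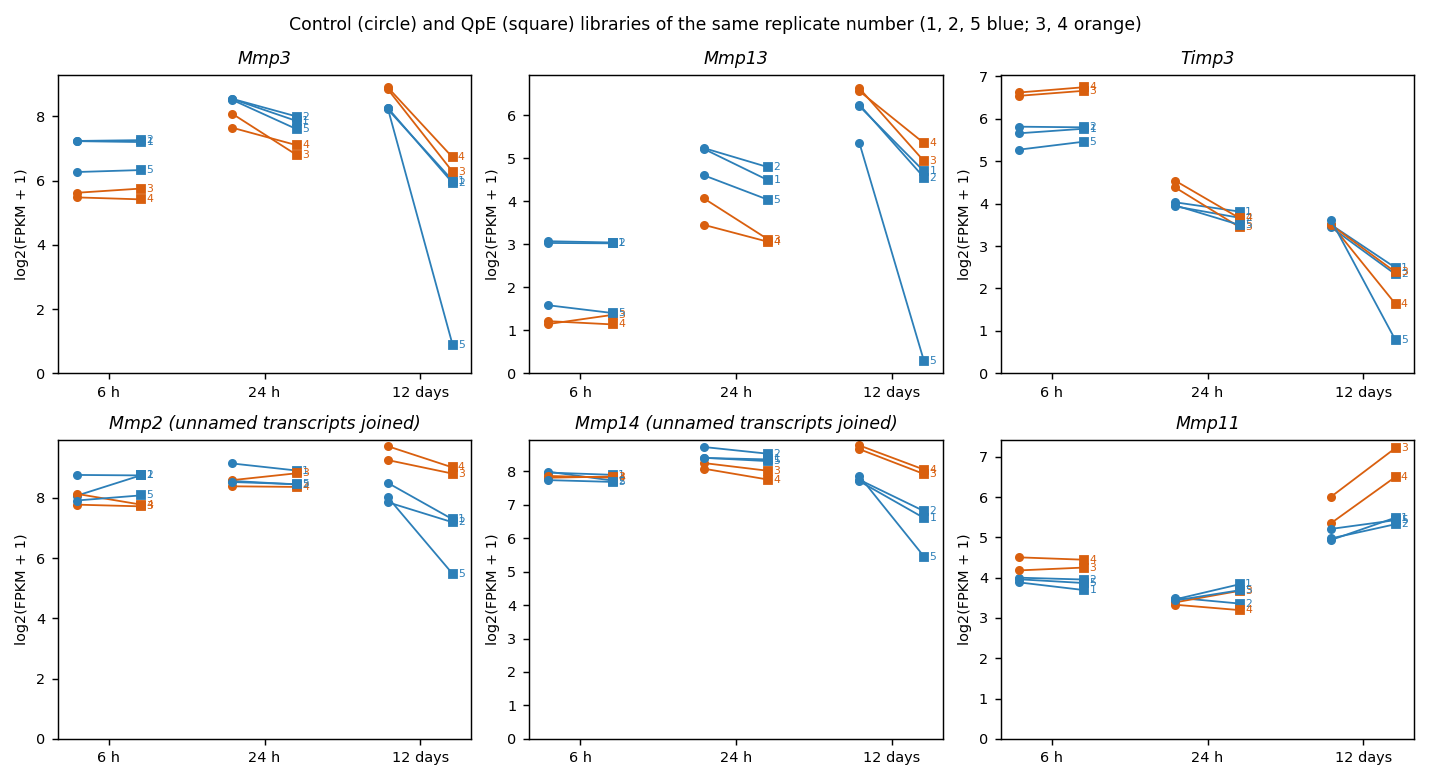
Control (circles) and QpE (squares) libraries of the same replicate number joined by lines, on the log2(FPKM + 1) scale, for Mmp3, Mmp13, Timp3, Mmp2 and Mmp14 (unnamed transcripts joined) and Mmp11. Replicates 1, 2 and 5 are blue and 3 and 4 orange. At 12 days all lines point down except those of Mmp11, which all point up. Replicate 5 falls furthest in every gene whose lines point down.

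Mmp11 encodes stromelysin 3, a protease that is activated inside the cell by furin-type enzymes and is known to act on adipocyte differentiation. It lies on chromosome 10 at 75923222 to 75936496, minus strand. Control libraries at 12 days held 29.6, 30.5, 63.3, 39.8 and 36.1 FPKM, and QpE libraries 44.1, 39.2, 149, 90.0 and 42.2 FPKM. The groups overlapped, QpE replicates 3 and 4 were the highest, and in 5 of 5 numbers the QpE library was above its control. The difference was 0.70 (95% interval -0.15 to 1.55, adjusted p = 0.332), 0.38 within replicates 1, 2 and 5 and 1.19 within replicates 3 and 4. With the replicate set as a term and unnamed transcripts joined it passed (adjusted p = 0.0322), as it did with the replicate number as a block and the same joining (0.0364). Both of these settings were chosen after the data were seen. Joining leaves the Mmp11 level as it is, and on named transcripts neither the set term (adjusted p = 0.0575) nor the block (0.0765) called it. In controls Mmp11 fell by 0.68 from 6 h to 24 h (adjusted p = 0.00523, and 0.115 with all 30 libraries in 1 fit) and rose by 1.87 from 24 h to 12 days (SE 0.182, adjusted p = 1.48e-04), from 9.75 ± 0.506 to 39.8 ± 13.8 FPKM. Both groups at 12 days lay above the other 4 groups, with no overlap.

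Mmp2 (gelatinase A, which cuts denatured collagen and basement membrane collagen) and Mmp14 (a membrane-bound collagenase) could not be read from named transcripts alone. In the authors' assembly, transcripts without a gene name held 0.0690% to 95.9% of the Mmp2 locus signal (median 22.7%) and 19.04% to 79.3% of that of Mmp14 (median 67.5%). For Mmp2, control libraries at 12 days held 299, 31.4, 60.7, 278 and 257 FPKM in named transcripts and 361, 231, 611, 841 and 259 FPKM with the unnamed ones joined. In replicate 2 most of the signal was in unnamed transcripts, and in replicate 5 nearly all of it was in named ones. Joined values are therefore given for these 2 genes below, with both fits. Mmp2 lies on chromosome 8 at 92827291 to 92853420 and Mmp14 on chromosome 14 at 54431612 to 54445364, both on the plus strand. The named signal of Mmp14 came mainly from a 779-base transcript of 5 exons (mean 93.2 FPKM over 30 libraries), and the unnamed transcript of the locus had 3656 bases and 10 exons (160.3 FPKM).

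**Figure D4:**
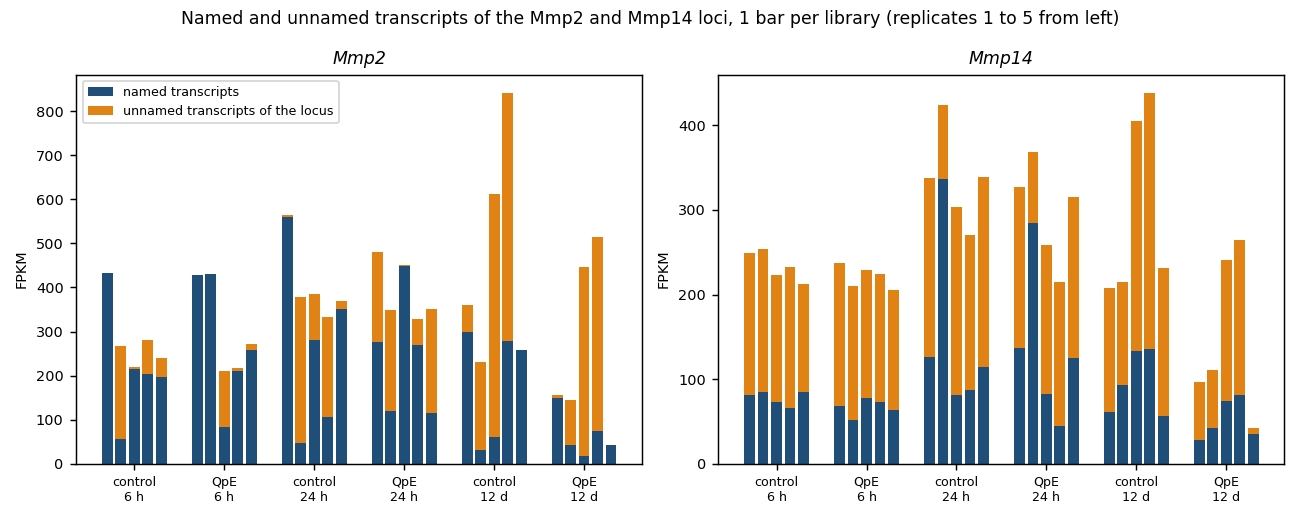
FPKM of named transcripts (blue) and of unnamed assembled transcripts of the same locus (orange) of Mmp2 and Mmp14, stacked, with 1 bar per library in order of replicate number. The split varies from library to library, most of all in Mmp2, while the full height varies less within a group at 6 h and 24 h.

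With unnamed transcripts joined, QpE libraries at 12 days held 155, 145, 447, 515 and 43.5 FPKM of Mmp2. In both groups replicates 3 and 4 were the highest, the groups overlapped, and each QpE library was below the control of its number. The difference was -1.12 (SE 0.647, adjusted p = 0.297) and passed with the replicate set as a term (adjusted p = 0.0462) or the number as a block (0.0494). Both of the settings that passed were chosen after the data were seen. With named transcripts alone the difference was -1.34 (adjusted p = 0.341). Without QpE replicate 5 the joined difference was -0.60 (adjusted p = 0.534).

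Mmp14 followed the same sets of cultures. Joined values at 12 days were 208, 215, 405, 438 and 232 FPKM in controls and 96.3, 111, 241, 265 and 42.7 FPKM with QpE. The groups overlapped because replicates 3 and 4 stood higher in both, and each QpE library was below its control. The difference was -1.19 (SE 0.471, adjusted p = 0.129), -0.81 without QpE replicate 5 (adjusted p = 0.226), and passed with the set as a term (adjusted p = 0.0102). The setting that passed was chosen after the data were seen. With named transcripts the difference was -0.91 (adjusted p = 0.181). From 6 h to 24 h in controls the joined level rose by 0.50 (adjusted p = 0.00929), from 234.2 ± 17.2 to 334.8 ± 57.3 FPKM. The named transcripts alone had a larger difference, 0.72, that did not pass (SE 0.338, adjusted p = 0.216).

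Mmp19, a secreted protease of basement membrane proteins, had group means of 20.2 to 33.3 FPKM. It lies on chromosome 10 at 128790910 to 128800824, plus strand. At 12 days controls held 25.97, 28.5, 22.6, 24.4 and 27.98 FPKM and QpE libraries 25.6, 23.9, 14.7, 20.5 and 16.2 FPKM. The groups overlapped, with the QpE library lower in 5 of 5 numbers, and the difference was -0.37 (SE 0.155, adjusted p = 0.200). In controls Mmp19 fell by 0.35 from 24 h to 12 days (adjusted p = 0.00956).

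Over the control time course the 10 genes moved in both directions. From 6 h to 24 h, 2 genes rose (Mmp3, Mmp13) and 3 fell (Mmp11, Timp1, Timp3), which is 5 of 10 beside 12.4% of all gene rows called, and the median of the 10 was 0.15 (0.01 over all gene rows). With all 30 libraries in 1 fit 3 were called (Mmp13, Timp1, Timp3), beside 8.93%. From 24 h to 12 days, 2 rose (Mmp11, Mmp13) and 3 fell (Mmp19, Timp1, Timp3), again 5 of 10, beside 20.5%, and with all 30 libraries 3 were called (Mmp11, Mmp19, Timp1), beside 20.5%. The median here was -0.24 (-0.08 over all gene rows). These comparisons share the 24 h controls. Of 7 tested adipocyte markers 6 rose between 24 h and 12 days in controls, and their part in these changes was not tested.

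In QpE cultures 6 of 10 genes were called between 24 h and 12 days, beside 29.3% of all gene rows. Mmp11 rose by 2.45 on the log2 scale (SE 0.355, adjusted p = 8.09e-04), a 6.69-fold higher mean. Timp1 fell by 2.44 (SE 0.444, adjusted p = 0.00268) and Timp3 by 1.69 (adjusted p = 0.00270). Mmp2 fell by 2.04, Timp2 by 1.67 and Mmp19 by 0.58. The Timp2 call (adjusted p = 0.0364) was lost without any 1 of QpE replicates 1, 2, 3 and 5 at 24 h or QpE replicates 1 and 2 at 12 days (0.0517 to 0.0772), and with the replicate number as a block (0.0755). The Mmp2 call (0.0200) was lost with unnamed transcripts joined (-1.04, adjusted p = 0.168), where Mmp14 was called in its place (-1.23, adjusted p = 0.0437), beside 42.7% of gene rows called in that fit. With all 30 libraries in 1 fit 8 of 10 were called (Mmp3 and Mmp14 too), beside 37.6% of all gene rows. Without the filter on low levels 4 of 10 were called, beside 11.9%, and the calls of Mmp2 (adjusted p = 0.0587) and Timp2 (0.0979) were lost. Without QpE replicate 5 Mmp3 was called too (-1.23, adjusted p = 0.0104). The median of the 10 genes was -1.45, and that of all gene rows -0.105.

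At 24 h QpE changed none of the 10 genes past the threshold. There were 4 of 10 at an unadjusted p under 0.05 (Mmp3, Mmp19, Timp1, Timp3), beside 1291 of 18035 gene rows. Of the 10 differences 8 were below 0, as were 47.6% of all gene rows, and the median was -0.20 (0.01 over all gene rows). Of all gene rows 0.0166% were called. Mmp3, Mmp13, Mmp19 and Timp3 were lower in 5 of 5 replicate numbers. The share of all gene rows with this trait was not counted, and the numbers were not taken to pair the cultures. Timp3 was the 1 gene of 10 whose groups did not overlap, as for 0.826% of all gene rows with QpE lower. At 6 h limma called 0 of 10, beside 0.00554% of all gene rows. At an unadjusted p under 0.05 there were 0 of 10, beside 596 of 18035 gene rows, and 5 of 10 differences were below 0 (54.1% of all gene rows). The intervals at 6 h were narrow for Timp2 (0.01, -0.20 to 0.21) and wide for Mmp3 (0.03, -1.05 to 1.11) and Mmp13 (-0.02, -1.26 to 1.23). For these 2 genes much of that width was spread shared by libraries of the same number in both groups: with the replicate number as a block the intervals were -0.08 to 0.14 for Mmp3 and -0.29 to 0.26 for Mmp13.

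Whether the QpE difference at 12 days was larger than that at 24 h was tested by the interaction of treatment and time. It passed for 0 of 10 genes, beside 0.0277% of all gene rows, with 4 of 10 at an unadjusted p under 0.05 (Mmp3, Timp1, Timp2, Timp3), beside 2374 of 18035 gene rows. Timp1 had an interaction of -1.48 (95% interval -2.49 to -0.47, adjusted p = 0.175) and Timp3 of -1.04 (-1.76 to -0.32, adjusted p = 0.176). Without QpE replicate 5 at 12 days Timp1 (-1.01, adjusted p = 0.0291) and Timp2 (-0.99, adjusted p = 0.0478) passed, beside 1.01% of all gene rows.

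The balance of summed protease and inhibitor transcripts moved with time. With unnamed transcripts joined, the 7 protease genes summed to 1.35 ± 0.339 times the 3 inhibitors in controls at 6 h, 3.15 ± 0.445 times at 24 h and 4.29 ± 0.897 times at 12 days (SD, n = 5). With QpE the ratios were 1.36 ± 0.397, 3.03 ± 0.310 and 5.97 ± 1.98. At 12 days the QpE ratios were 4.08, 3.76, 7.23, 6.51 and 8.28 and the control ratios 4.01, 3.46, 5.05, 5.42 and 3.51. Each QpE ratio was above the control of its number, and the groups overlapped. The inhibitor sum with QpE was 100.3, 106.9, 132.4, 158.8 and 17.6 FPKM against 247.7 to 353.5 FPKM in controls. The protease sum was 409, 402, 958, 1035 and 146 FPKM against 885 to 1915 FPKM in controls. The inhibitor sums did not overlap and the protease sums did.

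**Figure D5:**
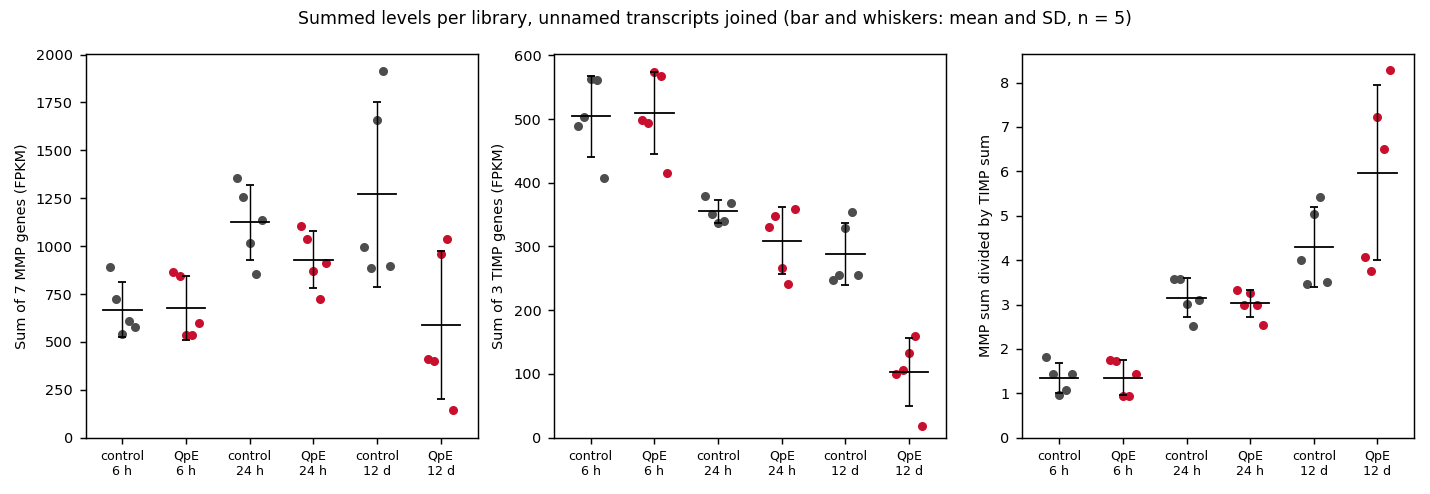
Summed FPKM of the 7 protease genes, of the 3 inhibitor genes, and their ratio, in each library by group, with unnamed transcripts joined. Bars are means and whiskers SDs of 5 libraries. The ratio rises from means of 1.35 and 1.36 at 6 h to 4.29 in controls and 5.97 with QpE at 12 days, where the 2 groups overlap.

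The makeup of each sum changed too. Timp2 held 42.9% of inhibitor transcripts in controls at 6 h, 70.6% at 24 h and 80.8% at 12 days (means of 5), while Timp1 went from 44.3% to 15.5% and Timp3 from 12.8% to 3.72%. With QpE at 12 days the mean shares of Timp2, Timp1 and Timp3 were 81.2%, 15.4% and 3.39%. Among the proteases at 12 days, Mmp11 held 2.08% to 4.01% of the sum in controls and 8.70% to 28.9% with QpE, without overlap. Mmp3 held 24.8% to 34.5% in controls and 0.581% to 15.4% with QpE, also without overlap, and the Mmp2 shares overlapped (26.1% to 43.9%, and 29.9% to 49.8%). Shares of a sum are not independent of each other, and no test was made on them.

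Of 17 further MMP and TIMP genes, 3 were tested: Mmp9 (gelatinase B), Mmp23 and Mmp28. With QpE at 12 days 0 of 3 were called, with Mmp9 at -1.56 (adjusted p = 0.0530), Mmp23 at -1.11 (adjusted p = 0.0680) and Mmp28 at 0.08. Mmp9 was 4.27 ± 2.10 FPKM in controls and 0.808 ± 0.874 FPKM with QpE. In controls from 6 h to 24 h Mmp28 fell by 0.93 (adjusted p = 0.00325) and Mmp9 rose by 0.88 (adjusted p = 0.0235). In QpE cultures Mmp23 fell by 1.62 from 24 h to 12 days (adjusted p = 0.00478). Of the other 14, Mmp1b reached 1.18 FPKM in 1 library, the rest stayed under 1 FPKM, and Mmp7 and Mmp20 were listed at 0 in every library.

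Genes that act around these enzymes were counted from lists, to be read beside the 2.73% of all gene rows called lower. Among 11 tested genes of MMP activation, inhibition and clearance, 2 were lower with QpE at 12 days and 0 higher (median -0.67): Plat, tissue plasminogen activator, fell by 2.05 (adjusted p = 0.0236) and Serpine2, a serine protease inhibitor, by 1.18 (adjusted p = 0.0143). Of 17 ADAM and ADAMTS proteases 3 were lower and 0 higher (median -0.44), namely the aggrecanase genes Adamts5 (-1.37, adjusted p = 0.0351) and Adamts4 (-1.13, adjusted p = 0.0411), and Adamts7 (-1.11, adjusted p = 0.0384). Of 21 matrix genes whose products are MMP substrates, 3 were lower and 0 higher (median -0.85): Lum, the proteoglycan lumican, fell by 2.47, Col1a1, a chain of collagen I, by 1.87 and Eln, elastin, by 1.65. Col1a1 is also one of the fibroblast markers. Of 15 transcription factors and cytokines known to act on MMP genes, 1 was lower and 0 higher (median -0.39), Runx2 (-1.14, adjusted p = 0.0381), a factor known to drive Mmp13. All 4 medians lay below that of all gene rows (-0.01) and above that of the 10 genes (-1.47). The list of 8 preadipocyte and fibroblast markers had a median of -1.37, close to that of the 10 genes, with 7 of 8 below 0 and 2 called lower. The summed fibroblast marker level was also lower in the QpE group, at 408 to 1921 FPKM against 2842 to 3599 FPKM, and its part in these counts was not tested.

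Over time in controls the same lists are to be read beside the 12.4% of all gene rows called from 6 h to 24 h. From 6 h to 24 h, 1 of 11 activation and inhibition genes rose (Serpine2, 0.56) and 5 fell, among them Plaur, the urokinase receptor, by 1.69 (adjusted p = 0.00400). Of the 17 ADAM and ADAMTS genes 2 rose and 1 fell. Of the 21 substrate genes 2 rose and 6 fell, with Eln up by 1.35 (adjusted p = 0.00241). Among the factors 0 of 15 rose and 3 fell, among them the AP-1 subunits Fosl1, which fell by 1.504 (adjusted p = 0.0168), and Junb, which fell by 0.84 (adjusted p = 0.00818). At 24 h and 6 h with QpE, 0 genes of these 4 lists were called.

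The genes most like each of the 10 in level over the 30 libraries were named by Pearson r on log2(FPKM + 1), with the r of deviations from group means in second place. For Timp2 they were Dcn (0.98 and 0.94), Rnase4 (0.97 and 0.96) and Gas6 (0.97 and 0.94). For Mmp3 they were Pltp (0.95 and 0.91), Srpx2 (0.94 and 0.90) and Ctsk (0.93 and 0.95), and for Timp1 Prkg2 (0.99 and 0.89), Tgfbi (0.98 and 0.83) and Il1rl1 (0.98 and 0.91). For Timp3 they were Kctd10, Samd5 and Actb (0.97 to 0.98, and 0.67 to 0.76), so that much of the likeness lay between groups. Mmp13 was most like Fbln7 (0.93 and 0.85), Klhdc10 and Akr1c14, Mmp11 most like C1qbp (0.95 and 0.78), Psme3 and Mreg, and Mmp19 most like Maged1 (0.94 and 0.80), Tril and Lrrc17. Mmp14 reached 0.78 (Asap1, then Akna and Man2b2), Mmp10 0.71 (Dpy30, then Aplf and Mir546) and Mmp2 0.66 (Tmem14a, Mob3a, Sema6c), on named transcripts. The 30 points share groups, depth scaling and culture sets, and these values are descriptions. For Mmp3, Mmp13 and Timp2 QpE replicate 5 at 12 days lay far below its group, and no r without it was computed.

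Among the 10 genes themselves, deviations from group means were most alike for Mmp3 and Mmp13 (r = 0.96), Mmp3 and Timp2 (0.94), Mmp13 and Timp2 (0.88) and Timp1 and Timp2 (0.87), over 30 libraries. QpE replicate 5 at 12 days was the lowest of its group for Mmp3, Mmp13, Timp1 and Timp2. For Mmp3, Mmp13 and Timp2 it was far below the rest. These r values rest in part on that library, and r without it was not computed. Mmp11 and Mmp19 ran against each other, at -0.84 over the levels and -0.58 over the deviations. For Mmp3 and Timp3 the deviations gave 0.21.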

How the data were processed

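RNA of 30 cultures of 3T3-L1 cells was sequenced, 5 per group. The authors deposited 1 table of FPKM per assembled transcript and library, with HISAT, HISAT2, StringTie and the build GRCm38 named per the submitters' processing notes, and with settings, versions and strand use not given in the sources used here. In 10 libraries 11 of the deposited FPKM values lay just below 0 (lowest -7e-05) and were set to 0. The FPKM totals of the 150146 transcripts were 413502 to 500489 per library. The deposited values hold no counts, so depth is approximate and no counting interval is given.

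Transcripts were summed per gene symbol, and the 16259 without a name were left as loci of their own. An alternative joined 10567 of these to the single named gene of their locus. Gene rows at 1 FPKM or more in at least 5 libraries were kept, transformed as log2(FPKM + 1), which understates the change of low genes, and fitted with limma 3.58.1 in R 4.3.3 on the groups compared. Two-sided p-values were Benjamini-Hochberg adjusted over all gene rows tested, with a threshold of 0.05. The code was tested on simulated data. For the 12 day comparison 18.2% of 1.5-fold, 42.7% of 2-fold and 75.2% of 4-fold changes were called, so a gene not called can still differ. Of the calls 12.6% were false, above the threshold's nominal rate, so calls near the threshold are the less secure. Descriptions and plots used Python 3.11.15, pandas 2.3.3, numpy 2.4.6 and matplotlib 3.10.9. Sequence motifs were counted in RefSeq promoters.

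The genes, lists and culture sets were chosen with earlier results of these data known. All 10 genes are named, with up to 4 called genes of the largest difference per list and comparison and the 3 genes most like each in level, apart from Serpine2 and Mmp9, Mmp23 and Mmp28, which were added after their values were seen. Alternatives changed the fit's samples, the pseudocount (0.1), the filter, the scaling, the transcripts, the weights, the replicate block or set, and left out each library. Of these, 4 combined settings for 12 days were chosen after seeing the data. The values of 1 list gene are not reported here.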

Additional observations from a re-analysis of the deposited data

Results flagged for a closer look

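In each of the 60 sets of 5 libraries (10 genes in 6 groups) the lowest and highest libraries were compared with the rest, on the log2(FPKM + 1) scale, and 6 sets had a library whose gap to its neighbour exceeded Dixon's limit, a set share of the group's range. Chance gives this in about 1 of 20 such groups. With QpE at 12 days, replicate 5 was far below the other libraries for Mmp3 (0.846 FPKM), Mmp13 (0.213 FPKM) and Timp2 (13.97 FPKM). The gaps were 0.864, 0.842 and 0.789 of the range on the log2 scale and 0.570, 0.562 and 0.585 on the FPKM scale, where they would not pass that limit. Mmp10 had a single high library in 3 groups, all under 1 FPKM: 0.462 FPKM in control replicate 4 at 6 h, 0.870 FPKM in QpE replicate 4 at 24 h and 0.629 FPKM in QpE replicate 3 at 12 days. In the first of these the other 4 libraries were listed at 0.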

How the results depend on the processing

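With QpE at 12 days 1 of the 10 genes was called. The count was 6 with all 30 libraries in 1 fit, 4 with unnamed transcripts joined, 5 with these joined and without QpE replicate 5, 5 with the replicate set as a term, 7 with the set as a term and unnamed transcripts joined, 2 with weights per group, and 0 without the filter, within replicates 1, 2 and 5 and within replicates 3 and 4. Leaving out 1 library gave 0 to 5. In controls the count of 5 became 3 with all 30 libraries, both for 24 h against 6 h and for 12 days against 24 h. The interaction count of 0 became 2 without QpE replicate 5 at 12 days. For single genes, 1420 alternative values kept direction and side of the threshold, 49 passed it newly, 25 no longer passed, 66 uncalled values changed sign, and 0 called values did.

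With the replicate number as a block, 1 gene was called at 12 days (Mmp14, not Timp3), 8 with unnamed transcripts joined, and 5 without number 5 in both groups. Deviations of same-numbered libraries correlated at 0.084 to 0.209 at 12 days, 0.018 to 0.081 at 6 h and -0.006 to 0.107 at 24 h. With unnamed transcripts joined these were 0.157 to 0.38, 0.044 to 0.195 and 0.038 to 0.167. The labels do not say that a number marks a shared day, and not every pair was above 0.1 on named transcripts. The main fit therefore did not take the numbers to pair the cultures. This does not show that pairing is absent, since every value with unnamed transcripts joined was positive. Where same-numbered cultures do share spread, the main fit leaves it in, as for Mmp3 and Mmp13 at 6 h. At 6 h control replicates 1 to 4 correlated best with the QpE library of their own number, on named transcripts. At 24 h replicates 4 and 5 did, and at 12 days only replicate 4.

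Over all gene rows at 12 days, 493 were called lower and 384 higher. The counts were 1598 and 1307 with all 30 libraries, 195 and 169 without the filter, 1047 and 740 with unnamed transcripts joined, 205 and 171 with the most abundant transcript, 1266 and 1202 with the set as a term, 1945 and 1770 with the set and joining, 1498 and 1283 with the block and joining, 295 and 159 with the block and without number 5, 26 and 47 within replicates 1, 2 and 5, and 0 and 0 within replicates 3 and 4. The block gave 313 lower, joining without QpE replicate 5 gave 859 lower, and TPM scaling gave 224 higher. Leaving out 1 library gave 33 to 447 lower and 21 to 314 higher. The cause of these shifts was not tested. Values under about 1 FPKM, as for Mmp10, are limited by depth.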
